A study of Mus musculus with 12 samples.

Results

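The 6 keratin genes Krt1, Krt10, Krt4, Krt13, Krt78 and Krt80 were picked by name as keratins of the suprabasal layers of squamous epithelia and were read as rows of a table of 24674 genes. RNA abundance was measured by RNA sequencing in mouse prostate organoids that derived from basal epithelial cells. An organoid is a small hollow or solid culture that epithelial cells form in a gel. All 12 samples came from wild-type C57BL/6 mice, which the study's methods give as C57BL/6J males a few months old, and fell into 4 groups of 3 replicates. The groups were vehicle, UK5099 alone, butyrate alone, and UK5099 with butyrate (the combination). UK5099 inhibits the mitochondrial pyruvate carrier, the inner-membrane transporter through which pyruvate enters the matrix. Butyrate is a short-chain fatty acid that inhibits histone deacetylases. The design crosses the drugs, so each can be set against vehicle, against the other and against both. The labels give no dose or treatment time and do not say that replicates came from separate animals, so p-values measure the spread between these samples, which may be technical.

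Keratins form the intermediate filaments of epithelial cells. A type II keratin such as KRT1 or KRT4 assembles with a type I keratin such as KRT10 or KRT13, and which pair a cell makes depends on its tissue and layer. KRT1 with KRT10 is the pair of the suprabasal epidermis, and KRT4 with KRT13 is the pair of the suprabasal layers of internal stratified epithelia such as the oesophagus. KRT78 and KRT80 are type II keratins, of which KRT78 is found in differentiated stratified epithelium and KRT80 is made in many kinds of differentiating epithelia. Basal cells of the prostate instead make mainly KRT5, KRT14 and KRT15, and luminal cells make KRT8 and KRT18.

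The type II genes lay in the keratin cluster of chromosome 15 and the type I genes in that of chromosome 11, all on the minus strand. Coordinates are those of the table. Its nuclear coordinates were not those of GRCm38, and the submitters' processing notes name GRCm39. Krt1 (ENSMUSG00000046834) spanned chr15:101753861-101759229 and Krt4 (ENSMUSG00000059668) spanned chr15:101826970-101833170. Krt78 (ENSMUSG00000050463) was at chr15:101854436-101862722 and Krt80 (ENSMUSG00000037185) was at chr15:101245325-101268043. Krt10 (ENSMUSG00000019761) spanned chr11:99276080-99280190 and Krt13 (ENSMUSG00000044041) spanned chr11:100008153-100012392.

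RefSeq promoter sequence was at hand for Krt10, Krt13 and Krt78, and the 250 bases before each start site are shown. The reason was that Krt10 and Krt13 had the largest changes of the 6 genes with UK5099 and with the combination. Krt78 rose with them. Positions are on GRCm38.p6, minus strand, at chr11:99389365-99389614 for Krt10, chr11:100121567-100121816 for Krt13 and chr15:101954288-101954537 for Krt78. The sequences run 5′ to 3′, and capitals mark matches, on either strand, to 5 short motifs.

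Krt10: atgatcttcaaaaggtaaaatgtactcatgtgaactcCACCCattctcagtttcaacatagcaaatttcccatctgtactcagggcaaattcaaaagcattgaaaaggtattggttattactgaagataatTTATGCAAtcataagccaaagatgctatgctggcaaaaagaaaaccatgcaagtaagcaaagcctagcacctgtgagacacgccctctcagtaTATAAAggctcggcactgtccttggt

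Krt13: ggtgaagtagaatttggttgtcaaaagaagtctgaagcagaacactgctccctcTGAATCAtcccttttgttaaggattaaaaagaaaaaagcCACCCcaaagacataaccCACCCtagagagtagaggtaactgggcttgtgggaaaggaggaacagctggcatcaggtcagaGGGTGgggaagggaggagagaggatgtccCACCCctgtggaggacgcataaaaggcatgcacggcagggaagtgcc

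Krt78: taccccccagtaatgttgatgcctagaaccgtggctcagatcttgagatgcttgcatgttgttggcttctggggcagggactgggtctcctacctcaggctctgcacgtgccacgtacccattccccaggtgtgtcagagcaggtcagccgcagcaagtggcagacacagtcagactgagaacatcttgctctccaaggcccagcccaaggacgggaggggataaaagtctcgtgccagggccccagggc

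The TATA box was searched as TATAAA and the AP-1 site as TGANTCA. The core of sites for KLF factors was searched as CACCC, the GRHL site as AACCNGTT and the C/EBP site as TTGCNNAA. None of the matches overlapped another. The Krt10 window held 1 TATAAA, starting at position -26 from the start site, 1 CACCC at -213 and 1 TTGCNNAA at -119. The Krt13 window held 1 TGANTCA at -196 and 4 matches to CACCC, at -157, -139, -76 and -47. The Krt78 window held 0 of the 5 motifs. Among 32851 promoter windows of the same length, 12.37% held TATAAA, 6.749% held TGANTCA, 52.01% held CACCC, 1.79% held AACCNGTT and 9.564% held TTGCNNAA. A match is a run of letters and not a measured binding site.

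Values were TPM, an abundance scaled to a common total in each sample, which in this table divides by a gene's whole genomic span. Depth was between 33252033 and 43499056 fragments per sample. All replicate pairs differed by more than counting noise, with a chi-square per degree of freedom between 1.93 and 6.64. Replicate 1 of UK5099 and replicate 1 of the combination stood apart from the other two of their groups, at 6.29 and above against 2.65 and below for the rest. Replicate 1 of the combination was the highest of its group for 6 of the 6 keratins, and no call of a keratin changed when it was left out. A gene was called where its coefficient, a difference of mean log2(TPM + 1) in a limma fit, had an adjusted p-value under 0.01 and exceeded 1 in size. Across genes averaging 1 TPM or more the median coefficient against vehicle was -0.12 under UK5099, -0.30 under butyrate and -0.41 under both drugs, so each keratin is best read against those shifts.

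The first question was how each drug alone changed these keratins. UK5099 raised 4 of the 6, Krt10, Krt13, Krt78 and Krt1, while 0.928% of all genes tested were called higher. Butyrate raised 5 of the 6, the same 4 and Krt4, while 1.13% of all genes were called higher. The combination raised 4 of the 6, again Krt10, Krt13, Krt78 and Krt1, while 1.79% were called higher. None of these 3 comparisons with vehicle called any of the 6 lower. Of all 24674 genes, 225, 596 and 1143 were called lower with UK5099, butyrate and the combination. These are small parts of all genes, so the lack of lower calls says little about the keratins. The 3 comparisons share the vehicle samples. The median coefficient of the 6 keratins was 1.92 (UK5099), 1.28 (butyrate) and 1.63 (both drugs), and the median of all 24674 genes was -0.03, -0.07 and -0.11. In bulk RNA, more cells making a keratin and more of its RNA per cell cannot be told apart.

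**Figure D1:**
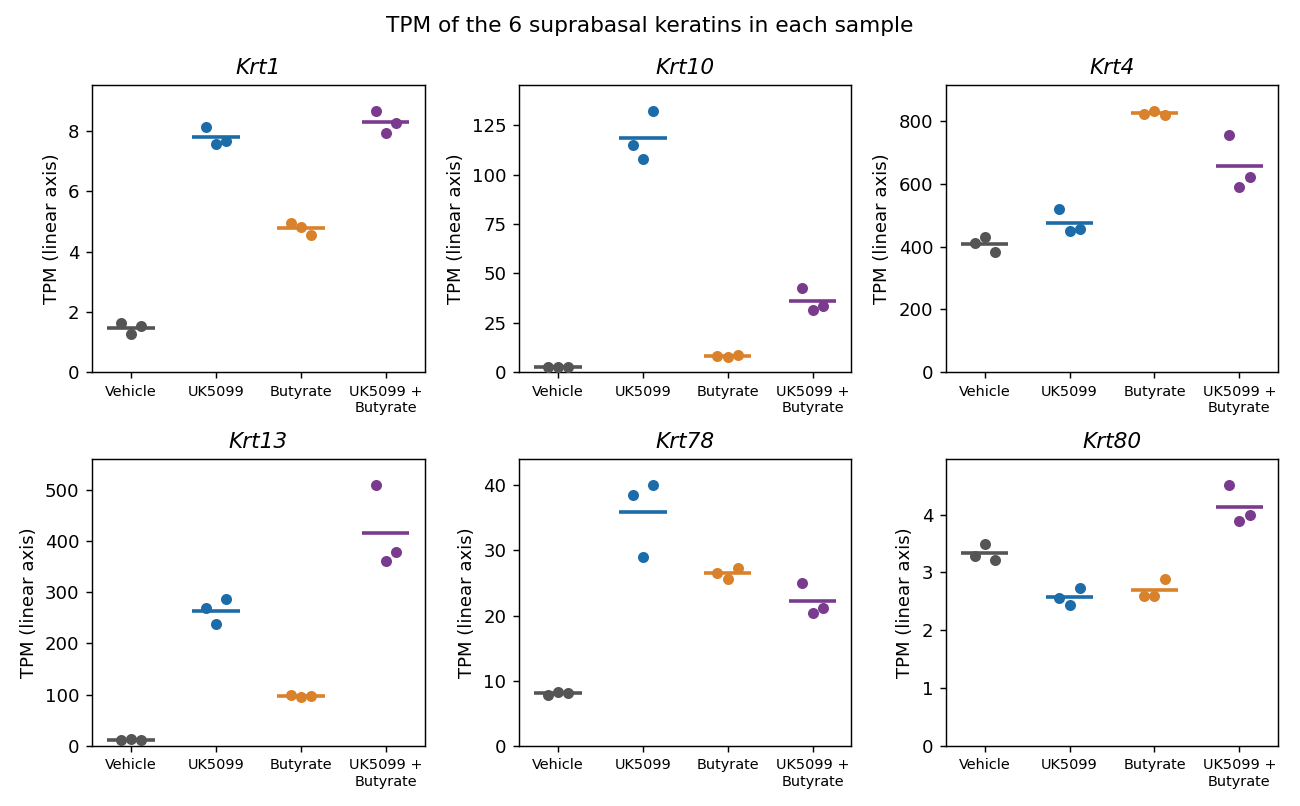
TPM (linear axis from 0) of each of the 6 keratins in the 12 samples, with points for single samples and lines for the mean of the 3 replicates in each group. Krt10 was highest with UK5099 alone, at 107.8 to 132.2 TPM, Krt13 was highest with the combination, at 359.9 to 509.6 TPM, and Krt4 was highest with butyrate alone, at 820.6 to 832.3 TPM.

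Krt10, the type I keratin of the epidermal pair, had the largest response to UK5099 of the 6. Its TPM was 2.68, 2.43 and 2.80 in vehicle, 115.2, 107.8 and 132.2 under UK5099, 8.16, 7.80 and 8.45 with butyrate, and 42.6, 31.2 and 33.7 with the combination. No groups overlapped, and the order was vehicle, butyrate, combination, UK5099. The mean was 44.9-fold higher with UK5099, 3.09-fold higher with butyrate and 13.6-fold higher with the combination. The coefficients were 5.03 (SE 0.11, adjusted p = 2.56e-09), 1.33 (SE 0.11, adjusted p = 3.93e-06) and 3.33 (SE 0.11, adjusted p = 4.35e-09), in that order. Krt10 ranked 7 of 24674 genes by coefficient under UK5099, 168 under butyrate and 55 under the combination.

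Krt10 also separated the drugs from each other. Its coefficient for butyrate against UK5099 was -3.70 (95% CI -3.95 to -3.45, adjusted p = 1.12e-08), and it was the lowest-ranked of all genes, at rank 1 of 24674, in that comparison. With butyrate added to UK5099, Krt10 fell by 1.70 on the log2(TPM + 1) scale (SE 0.11, adjusted p = 8.40e-07), from a mean of 118.4 ± 12.5 TPM to 35.8 ± 5.98 TPM (SD, n = 3). With UK5099 added to butyrate it rose by 2.00 (SE 0.11, adjusted p = 1.44e-06).

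Krt13, the type I keratin of the mucosal pair, had the largest response to butyrate and to the combination. Its TPM was 10.79, 12.90 and 10.97 in vehicle, 268.1, 237.1 and 286.7 under UK5099, 98.4, 96.0 and 97.4 with butyrate, and 509.6, 359.9 and 378.9 with the combination. No groups overlapped, and in contrast to Krt10 the combination stood above UK5099 alone. The mean was 22.8-fold higher with UK5099, 8.42-fold higher with butyrate and 36.0-fold higher with the combination than in vehicle. The coefficients were 4.40 (SE 0.13, adjusted p = 1.30e-08), 2.97 (SE 0.13, adjusted p = 4.18e-08) and 5.04 (SE 0.13, adjusted p = 8.45e-10). Krt13 ranked 10, 23 and 17 of 24674 by coefficient in the 3 comparisons. The step from UK5099 to the combination was 0.64 (95% CI 0.35 to 0.93, adjusted p = 0.00197), which had a small p but was under the coefficient limit of 1. The step from butyrate to the combination was 2.07 (SE 0.13, adjusted p = 2.80e-06).

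Krt1, the type II partner of KRT10, changed by less and from a low level. Its TPM was 1.63, 1.28 and 1.52 in vehicle, 8.14, 7.58 and 7.65 under UK5099, 4.93, 4.82 and 4.55 with butyrate, and 8.66, 7.93 and 8.27 with the combination. Vehicle lay below all treated samples and butyrate below the 2 groups with UK5099, which overlapped each other on this scale. In exonic TPM, which divides by exonic length, the combination lay above UK5099, at 8.94 to 9.65 against 7.75 to 8.43. Its values rested on 44 to 513 fragments per sample. The mean was 5.28-fold higher with UK5099, 3.23-fold higher with butyrate and 5.62-fold higher with the combination. The coefficients were 1.83 (SE 0.05, adjusted p = 1.49e-08), 1.22 (SE 0.05, adjusted p = 5.11e-08) and 1.91 (SE 0.05, adjusted p = 1.67e-09), and the added 1 TPM makes such a coefficient smaller than the fold at this level. Between UK5099 and the combination the difference was 0.08 (95% CI -0.04 to 0.20, adjusted p = 0.282), so it was not called. It depended on the scaling, as it was 0.20 in exonic TPM (adjusted p = 0.0140), 0.36 with median of ratios scaling (adjusted p = 4.02e-04) and 0.41 with voom on recovered fragments (adjusted p = 2.31e-05), still under the limit of 1.

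Krt4, the type II partner of KRT13, was the most abundant of the 6 per exonic base already in vehicle, where its mean of 541.2 exonic TPM compared with at most 13.5 for the others. Its TPM was 410.1, 429.4 and 382.1 in vehicle, 520.8, 451.1 and 457.4 under UK5099, 822.9, 832.3 and 820.6 with butyrate, and 757.1, 589.5 and 623.3 with the combination. The groups did not overlap, and the order was vehicle, UK5099, combination, butyrate. Krt4 was called only with butyrate, at 2.03-fold and a coefficient of 1.02 (SE 0.09, adjusted p = 6.85e-06), close to the limit of 1, and without vehicle replicate 3 it was 0.97 and no longer called. With UK5099 the coefficient was 0.22 (95% CI 0.02 to 0.43, adjusted p = 0.0816). Its p depended on the scaling, though each value was under the limit of 1. The coefficient was 0.26 in exonic TPM (adjusted p = 0.0392), 0.37 with median of ratios scaling (adjusted p = 0.0111) and 0.38 with voom (adjusted p = 1.69e-04). With the combination it was 0.68 (SE 0.09, adjusted p = 1.08e-04), under the limit, and it passed the limit at 1.15 under median of ratios scaling. Combination against butyrate was -0.34 (95% CI -0.55 to -0.13, adjusted p = 0.0169), and -0.19 with median of ratios scaling (adjusted p = 0.1825).

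**Figure D2:**
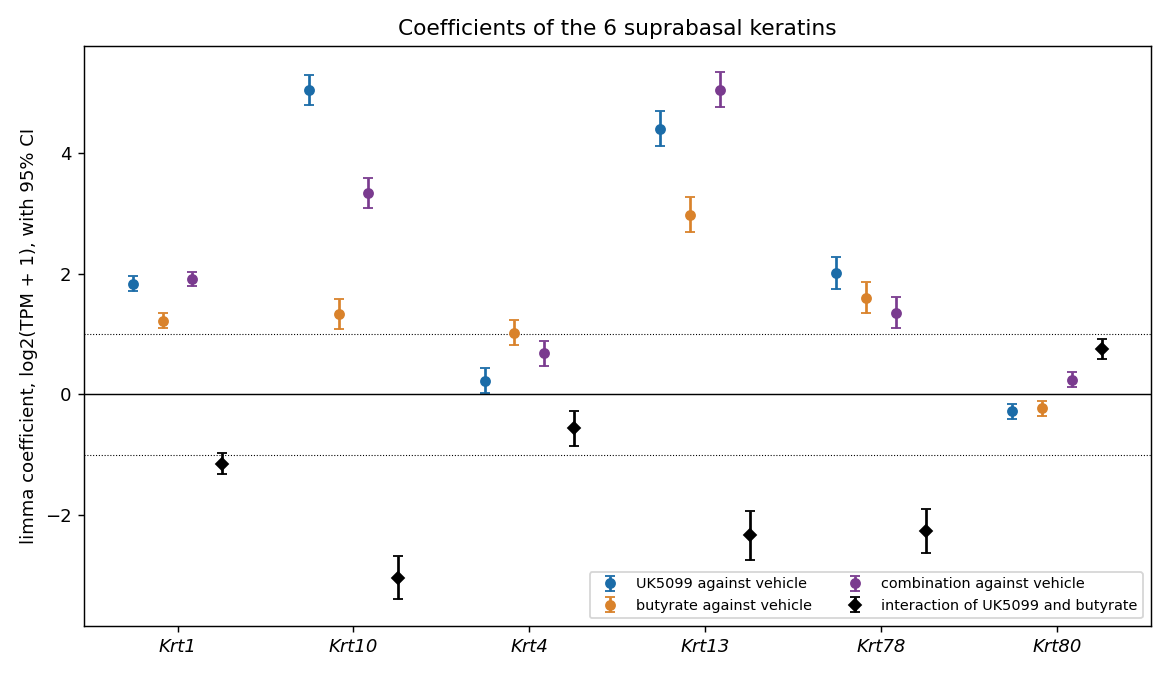
Coefficients of log2(TPM + 1) for each keratin against vehicle (circles) and for the interaction of the drugs (black diamonds), with 95% confidence intervals; dotted lines mark the limits of 1 and -1. Against vehicle the highest values were those of Krt10 and Krt13 with UK5099 and with the combination, and those of Krt13 and Krt78 with butyrate. Krt80 stayed within the limits throughout, and the interaction was negative for 5 of the 6 keratins.

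Krt78, a type II keratin of differentiated stratified epithelium, rose in all 3 treated groups. Its TPM was 7.76, 8.30 and 8.11 in vehicle, 38.6, 29.0 and 40.1 under UK5099, 26.6, 25.6 and 27.3 with butyrate, and 25.1, 20.4 and 21.2 with the combination. Every treated sample was above every vehicle sample, and the combination was the lowest of the treated groups. The mean was 4.45-fold, 3.29-fold and 2.76-fold that of vehicle, with coefficients of 2.01 (SE 0.12, adjusted p = 7.78e-07), 1.60 (SE 0.12, adjusted p = 1.35e-06) and 1.35 (SE 0.12, adjusted p = 3.46e-06). The combination was below UK5099 by a coefficient of -0.66 (95% CI -0.92 to -0.40, adjusted p = 8.29e-04), under the limit in size. The median coefficient of genes averaging 1 TPM or more was -0.29 in that comparison. For Krt78 the value was -0.36 with median of ratios scaling (adjusted p = 0.0301) and -0.37 with voom (adjusted p = 4.74e-04). Against butyrate the combination was -0.25 (95% CI -0.51 to 0.01, adjusted p = 0.135), and no difference was detected.

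Krt80, a type II keratin with a broad range among epithelia, did not follow the others. Its TPM was 3.28, 3.49 and 3.22 in vehicle, 2.56, 2.43 and 2.72 under UK5099, 2.59, 2.59 and 2.89 with butyrate, and 4.51, 3.89 and 3.99 with the combination. Both single-drug groups lay below vehicle and overlapped each other, and the combination lay above vehicle. The coefficients were -0.28 (SE 0.05, adjusted p = 0.00217), -0.23 (SE 0.05, adjusted p = 0.00467) and 0.24 (SE 0.05, adjusted p = 0.00292), all under the limit in size. The butyrate value was within its median shift and turned to 0.01 under median of ratios scaling (adjusted p = 0.951), so its direction depends on the scaling. The UK5099 value was -0.16 under median of ratios scaling (adjusted p = 0.0430) and -0.22 with voom (adjusted p = 0.0239), neither with a p under 0.01. In exonic TPM it was -0.30 (adjusted p = 0.00194). The combination exceeded UK5099 by 0.52 (SE 0.05, adjusted p = 2.01e-05) and butyrate by 0.47 (SE 0.05, adjusted p = 1.10e-04). With median of ratios scaling and with voom the combination value was 0.61 and 0.78 against vehicle, and 0.77 and 0.998 against UK5099, all still under the limit. Of the 11 Krt80 values under 1000 fragments 2 were whole numbers, and 3.88% of the 50-base stretches of its transcript also occur in transcripts of Gm35853 or Prdx6. For Krt10 4 of 6 such values were whole, and 2.445% of its stretches also occur in Gm11940. Whether fragments were divided between these genes was not tested.

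Between the treated groups, butyrate against UK5099 was called for 2 of the 6 keratins, Krt10 and Krt13, both lower with butyrate, while 1.18% of all genes were called lower. Against butyrate alone the combination was called higher for the same 2 keratins, with 0.551% of all genes called higher. Against UK5099 alone it was called lower for Krt10, 1 of the 6, with 1.15% of all genes called lower. Krt4 showed the opposite order to Krt10 between the single drugs, with a coefficient for butyrate against UK5099 of 0.79 (SE 0.09, adjusted p = 6.47e-05) that was under the limit. For Krt1 the same coefficient was -0.61 (SE 0.05, adjusted p = 1.15e-05), and for Krt78 it was -0.41 (95% CI -0.67 to -0.15, adjusted p = 0.0153). The Krt78 value was -0.25 with median of ratios scaling (adjusted p = 0.114) and -0.26 with voom (adjusted p = 0.00972).

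The next question was whether the combination equalled the sum of the single drugs on the log2(TPM + 1) scale. The interaction was called lower for 4 of the 6, Krt10, Krt13, Krt78 and Krt1, while 0.499% of all genes were called lower. Krt10 had an interaction of -3.03 (SE 0.16, adjusted p = 2.09e-06), as its single-drug coefficients summed to 6.36 and the combination reached 3.33, below UK5099 alone. Krt13 had -2.33 (SE 0.18, adjusted p = 2.33e-05), with a sum of 7.37 and a combination of 5.04, above either drug alone. Krt78 had -2.26 (SE 0.16, adjusted p = 1.50e-05), with a sum of 3.61 and a combination of 1.35, below either drug alone. Krt1 had -1.14 (SE 0.08, adjusted p = 9.94e-06), with a sum of 3.05 and a combination of 1.91, beside 1.83 for UK5099 alone. Krt4 had -0.56 (SE 0.13, adjusted p = 0.0132), which missed the threshold. Krt80 was the only one of the 6 with a positive value, 0.75 (SE 0.08, adjusted p = 1.14e-04), which was under the limit of 1. The 5 negative values thus covered combinations above, between and below the single drugs.

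**Figure D3:**
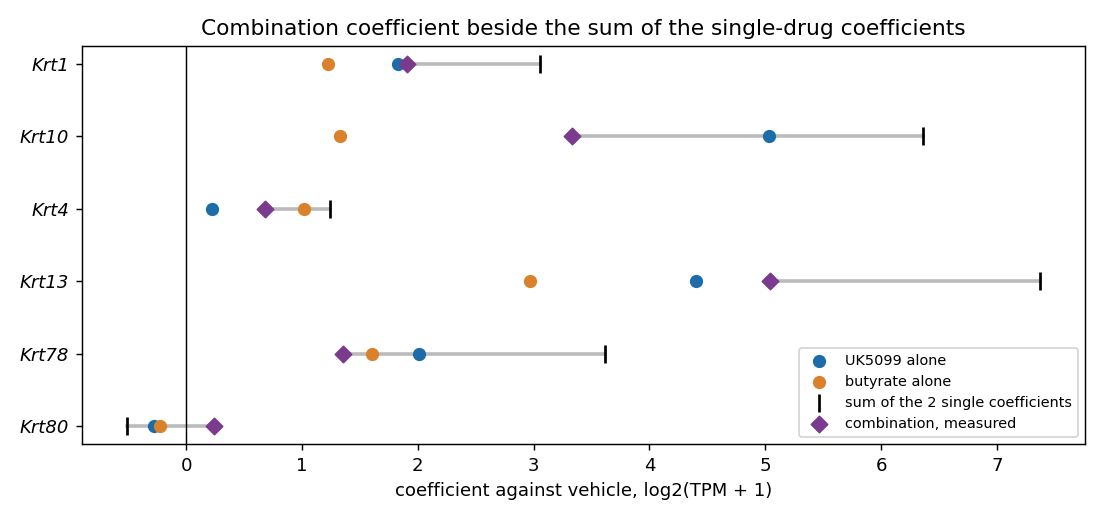
Coefficients against vehicle on the log2(TPM + 1) scale for UK5099 alone (blue), butyrate alone (orange) and the measured combination (purple diamonds), with a black bar at the sum of the single-drug coefficients and a grey line joining that sum to the measured value. The combination fell short of the sum for Krt1, Krt10, Krt4, Krt13 and Krt78, by the most for Krt10, whose interaction was -3.03, and lay above it for Krt80.

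To compare the levels of different genes, TPM was recomputed per exonic base. On that exonic TPM scale the type II to type I ratio moved with treatment in both pairs, which is given as a description without a test. The Krt1 to Krt10 ratio was 0.684, 0.592 and 0.610 in vehicle and 0.680, 0.696 and 0.606 with butyrate. It was 0.0795, 0.0791 and 0.0651 with UK5099 and 0.229, 0.286 and 0.276 with the combination. Butyrate thus left this ratio within the range of vehicle or just above it, while both groups with UK5099 lay well below. The Krt4 to Krt13 ratio was 43.1, 37.7 and 39.5 in vehicle, 9.49, 9.83 and 9.55 with butyrate, 2.20, 2.16 and 1.81 with UK5099, and 1.68, 1.86 and 1.87 with the combination. Krt4 exceeded Krt13 in every sample, and the ratio was lower in every treated sample than in any vehicle sample.

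**Figure D4:**
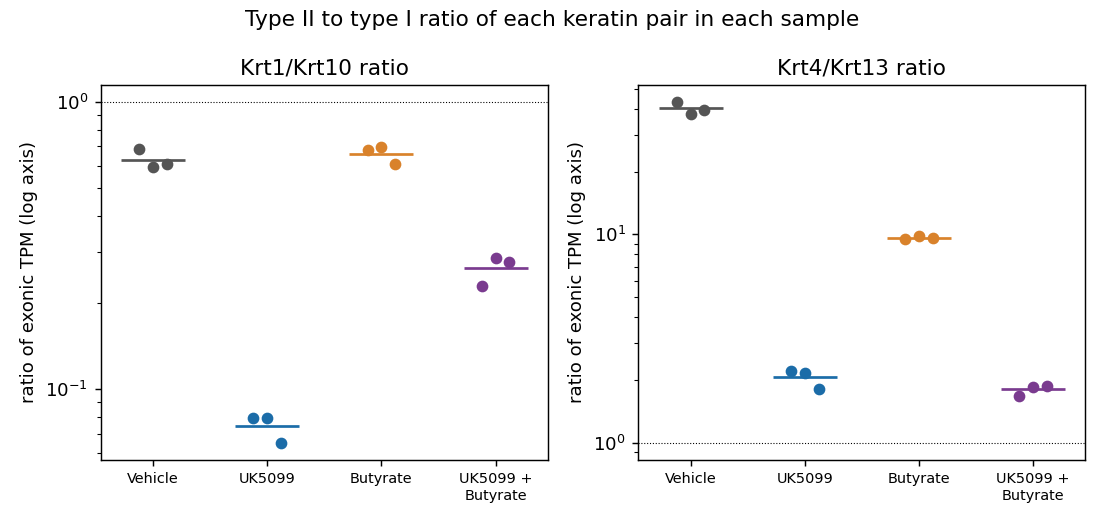
Ratio of exonic TPM of the type II to the type I keratin (log axis) for Krt1/Krt10 and Krt4/Krt13 in each of the 12 samples, with lines at the mean of each group of 3 and a dotted line at a ratio of 1. The mean Krt1/Krt10 ratio was 0.629 in vehicle, 0.0746 under UK5099, 0.661 with butyrate and 0.264 with the combination, and the mean Krt4/Krt13 ratio was 40.1, 2.06, 9.62 and 1.80.

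As a share of the exonic TPM of all 39 keratins in the table, the 6 held 3.12% ± 0.133 in vehicle and 4.10% ± 0.240 with UK5099 (SD, n = 3). They held 7.59% ± 0.133 with butyrate and 6.33% ± 0.649 when both drugs were given. Most of this was Krt4, and without it the other 5 held 0.184% ± 0.00737, 1.74% ± 0.152, 0.973% ± 0.0133 and 2.48% ± 0.330. The suprabasal keratins therefore stayed a small part of keratin RNA in every group. Among the 39, ranked by exonic TPM, Krt4 moved from rank 10 in vehicle to 8 under UK5099 and to 6 in both groups given butyrate. Its share of keratin RNA was 2.93% in vehicle and lower under UK5099, at 2.36%, so a rank can rise while a share falls. Under UK5099, Krt78 went from rank 14 to 16 and Krt80 from rank 15 to 19. Krt13 was at rank 12 in vehicle and 9 with the combination, and Krt10 at rank 18 in vehicle and 13 with UK5099.

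Of the other 33 keratins, 6 were called higher and 1 lower with UK5099, 3 higher and 3 lower with butyrate, and 9 higher and 4 lower with the combination. Their median coefficients were 0.05, 0.05 and 0.12. These counts depended on the scaling: 7 higher and 1 lower, 5 and 1, and 11 and 3 were called with median of ratios scaling. With voom on recovered fragments they were 9 and 1, 14 and 1, and 18 and 3, with medians of 1.08, 1.09 and 1.58. Along the chromosome 15 cluster, not all genes beside the suprabasal keratins moved with them. Krt77 and Krt76, between Krt1 and Krt4, had group means of at most 0.110 and 0.223 TPM, too low to reach a coefficient of 1. Their means were higher in every treated group than in vehicle, where they were 0.0226 and 0 TPM. With voom on recovered fragments both were called higher with butyrate and with the combination. Krt79, between Krt4 and Krt78, was called lower with the combination, from a mean of 3.82 to 0.710 TPM, while Krt78 beside it rose. Krt8, the luminal keratin next to Krt78, had coefficients of -1.33, -1.73 and -2.94, called in all 3 comparisons. On chromosome 11, Krt20, separated from Krt10 by Krt12, had a mean of 26.4 TPM with UK5099 and 1.94 to 4.32 TPM in the other groups. Krt13 lay between Krt36 and Krt15, whose coefficients with UK5099 were 0.24 and 0.25 and not called. Krt36 was called higher with the combination, at 1.68, and like Krt13 was highest there. Its mean was 2.53 TPM with the combination and 0.0998 TPM in vehicle. Krt15 had -0.65 with the combination and was not called.

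**Figure D5:**
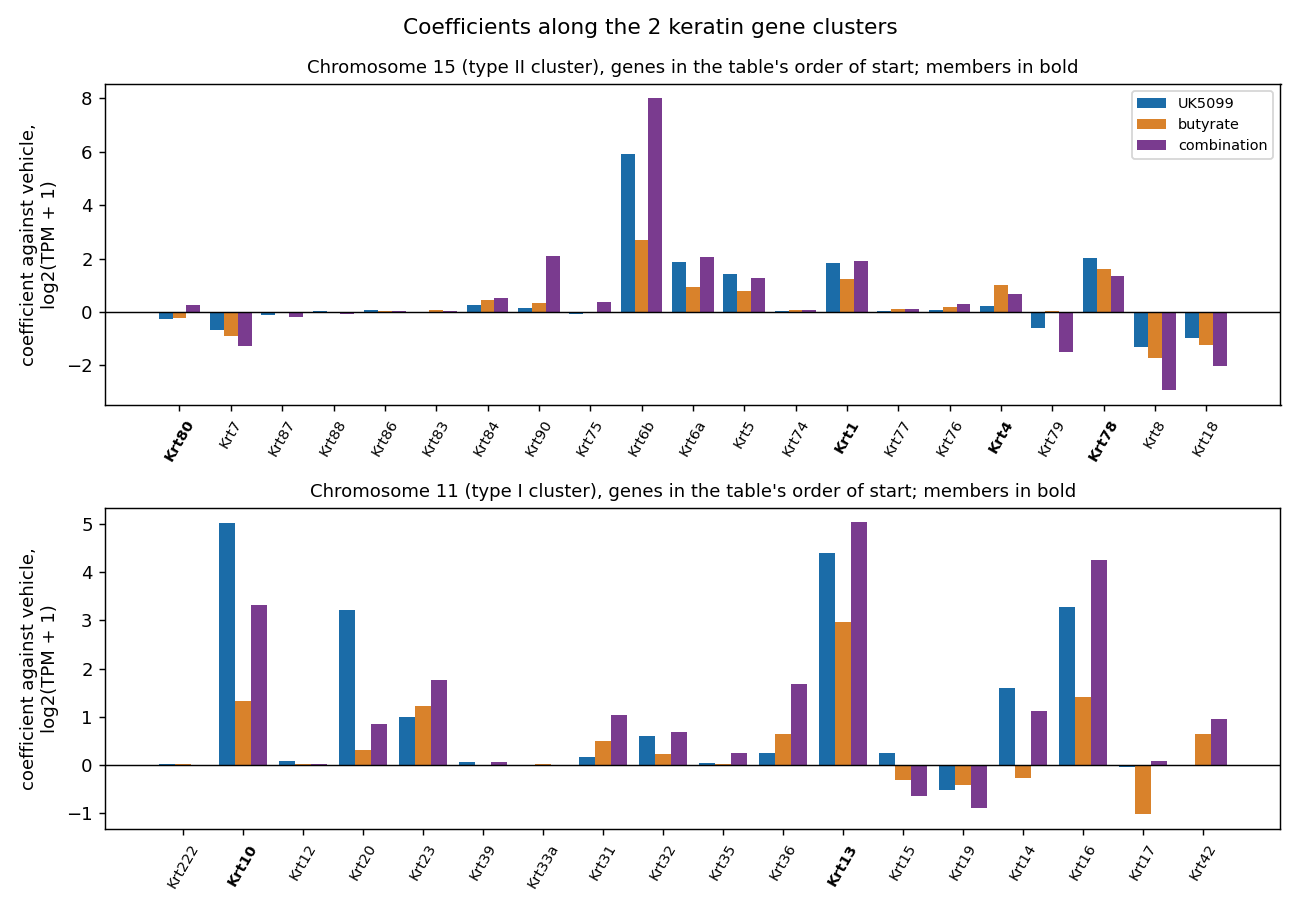
Coefficients against vehicle on the log2(TPM + 1) scale for the 39 keratin genes in the order of the table on chromosome 15 (21 genes) and chromosome 11 (18 genes), with bars for UK5099, butyrate and the combination and the 6 suprabasal keratins in bold. Krt78 and Krt1 rose in all 3 comparisons while Krt8 near them fell, and the largest value of the chromosome 15 cluster was that of Krt6b, 8.01 with the combination.

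Proteins that are made in the same suprabasal cells were taken as a list of 16 genes, among them cornified envelope proteins and their cross-linking enzymes. With UK5099, 11 of the 16 were called higher and 0 lower, with a median coefficient of 2.10. With butyrate 8 were called higher and 0 lower, with a median of 0.93, and with the combination 14 were called higher and 0 lower, with a median of 2.55. The 3 risers and 1 uncalled gene that follow were picked as examples after their values were seen. Krtdap, a secreted protein of differentiating keratinocytes, had a mean of 1.24 TPM in vehicle, against 78.5 under UK5099, 16.2 under butyrate and 100.7 under both drugs. Crnn, cornulin of the squamous mucosa, had means of 12.8, 150.2, 356.1 and 364.5 TPM in the same order. Ivl, involucrin of the cornified envelope, had 34.0, 172.1, 75.0 and 166.6 TPM. Lor, loricrin of the cornified envelope, had 8.37, 9.63, 8.41 and 7.60 TPM and was not called in any comparison. Combination against UK5099 was called higher for 6 of the 16, and the interaction was called higher for 3 and lower for 5.

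Of 19 transcription factors and signalling genes linked to squamous differentiation, most were not called against vehicle. Of all genes, 0.928%, 1.13% and 1.79% were called higher with UK5099, butyrate and the combination. With UK5099, 2 were called higher, Zfp750 and Ovol1, with coefficients of 2.51 (SE 0.05) and 1.90 (SE 0.06), and the median of the list was 0.52. With butyrate the same 2 were called higher, at 2.11 and 1.08, with a median of 0.24. With the combination Zfp750, Ovol1 and Klf4 were called higher, at 2.72, 2.08 and 1.24, with a median of 0.35. ZFP750 is a regulator of terminal epidermal differentiation, and OVOL1 and KLF4 are zinc finger factors of differentiating epithelium. Klf4 with either drug alone was 0.98 for UK5099 and 0.97 for butyrate, just under the limit. Zfp750 had an interaction of -1.90 (SE 0.07, adjusted p = 2.36e-07), the 1 call for the interaction among the 19. Under median of ratios scaling 4, 5 and 8 of the 19 were called higher in the 3 comparisons with vehicle, Klf4 among them each time.

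The genes most like each keratin over the 12 samples, by Pearson's r of log2(TPM + 1) among 10114 protein-coding genes averaging 1 TPM or more, are given as a description. The samples fall into 4 groups, so a high r mainly reflects a shared order of group means. For Krt13 they were Lypd3 (r = 0.998), Mall (0.996) and Evpl (0.996), of which Lypd3 and Evpl were on the suprabasal list. For Krt1 they were Tmprss11b (0.996), Sox15 (0.996) and Dsc3 (0.995), the last of which encodes a desmosomal cadherin. For Krt10 they were Slitrk6 (0.997), Lpar5 (0.995) and Slc14a1 (0.995). For Krt78 they were Hspa1b (0.985), Arhgef4 (0.978) and Kcne4 (0.977). For Krt4 they included Gm11808 (0.991) and the ribosomal protein gene Rps10 (0.985). For Krt80 they were Grina (0.935), Creld1 (0.919) and Cpne2 (0.891), the lowest of the 6 sets. Among the keratins themselves r was 0.992 for Krt1 and Krt13, 0.881 for Krt1 and Krt10, 0.479 for Krt4 and Krt13, and 0.04 for Krt10 and Krt4.

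Markers of other cell types were read in the same samples, as sums of exonic TPM. The 5 basal markers, Krt5, Krt14, Krt15, Krt17 and Trp63, summed to 8305 to 8367 in vehicle samples, 17022 to 17208 under UK5099, 9393 to 9677 under butyrate and 14171 to 14465 under both drugs. The 4 luminal markers, Krt8, Krt18, Krt19 and Krt7, summed to 8430.3 to 8678, 4980.5 to 5459, 5324 to 5389.8 and 3469.7 to 3950.4. Of the basal markers 2, Krt5 and Krt14, were called higher with UK5099 and with the combination and 0 with butyrate, where Krt17 was called lower. Under median of ratios scaling Krt5 was called higher with butyrate and Krt17 was not called. Of the luminal markers 1, 2 and 3 were called lower with UK5099, butyrate and the combination, and 1, 1 and 2 under median of ratios scaling. The 3 stress keratins, Krt6a, Krt6b and Krt16, moved with Krt13, summing to 992 to 1009 in vehicle samples, 4011 to 4184 under UK5099, 2087 to 2169 under butyrate and 5502 to 6334 under both drugs, and 3 of 3 were called higher with UK5099 and with the combination. The 5 urothelial markers were the uroplakin genes Upk1a, Upk1b, Upk2 and Upk3a with Krt20. Like Krt10 their sum was highest with UK5099, at 87.1 to 100.2, with Krt20 called higher and Upk3a called lower. It was 32.4 to 37.9 in vehicle and 36.5 to 41.2 with butyrate. Unlike Krt10 it was lowest with the combination, at 25.2 to 31.3. The uroplakins differed among themselves. Upk1a was also highest with UK5099, at a mean of 2.58 TPM against 0.250 to 1.47 in the other groups, while Upk2 was lowest there, at 0.411 TPM against 1.29 in vehicle. The part of these cell types in the keratin values was not tested.

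Among markers of cells outside the epithelium, the 3 endothelial genes summed to at most 0.429 exonic TPM in any sample. Of 3 immune markers 2 were analysed, and Ptprc, which all leukocytes express, was at a group mean of at most 0.00163 TPM, while Cd68, also a lysosomal protein of other cells, had means of 24.2 TPM in vehicle and 91.7 TPM with the combination. The 5 stromal markers summed to 8.86 to 18.2 exonic TPM outside the butyrate group and 96.3 to 99.2 within it, against group means of 7.99 for Krt10 and 125.9 for Krt13 in that group. Of the 5, Dcn alone was called higher with butyrate, from a mean of 0.762 to 9.51 TPM. From vehicle to butyrate the mean of Col1a1 went from 1.01 to 0.713 TPM and that of Col1a2 from 0.183 to 0.146. Col3a1 went from 0.115 to 0.0486 TPM and Pdgfra from 0.129 to 0.175. Krt4, like Dcn, was highest in the butyrate group, and the part of stromal cells in the Krt4 values was not tested. The neuroendocrine markers Chga and Syp summed to at most 1.72 exonic TPM. The 3 seminal vesicle genes of the marker list were not analysed here.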

How the data were processed

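The authors deposited 1 table of TPM per gene for the 12 samples. The study's methods name fastp 0.20.1, STAR 2.7.10a, GRCm38 and RSEM 1.3.3 for these samples, whereas the submitters' processing notes name STAR 2.7.9a, Partek and GRCm39. In the deposited TPM table the listed length, the genomic span that the value was divided by, equalled stop minus start in 100% of genes, and 2.076% of nuclear genes had the GRCm38 start and end. Per the labels, libraries were stranded, with ribosomal RNA depleted and mRNA enriched, and read as pairs. Groups and replicate numbers came from the sample titles.

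All 24674 genes and 12 samples entered a fit of log2(TPM + 1) by limma 3.58.1 in R 4.3.3, with group means as terms, empirical Bayes moderation and Benjamini-Hochberg adjustment. Vehicle, single-drug and combination contrasts and the interaction make 7 comparisons. Calls needed an adjusted p under 0.01 and a coefficient over 1 in size, as in the study's methods; the pseudocount of 1 was chosen here. Fragments were recovered from the steps of each sample's low values. Under 1000 fragments, 66.2% to 67.5% of values were whole within 0.02. Exonic TPM divides these fragments by the exonic length in GENCODE M21. At 33252033 to 43499056 fragments per sample, the lowest keratin value rested on 44 fragments. Promoters were matched by symbol for 3 of the 6 genes in RefSeq. Named genes were the 6 keratins in full, their 3 most similar genes, and the lists as counts, with regulators named where 5 or fewer were called; other list genes were named as examples after their values were seen. The keratins and the lists were chosen with earlier results of these data known. Scripts were tested on simulated data and ran on Python 3.11.15 with numpy 2.4.6, pandas 2.3.3 and matplotlib 3.10.9. Alternatives were another pseudocount, a filter, other scalings, voom, exonic length, another prior, a replicate block, samples left out, fits of 6 samples and other thresholds. The values of 1 gene on the list of regulators, which was left out of that list's counts and median, and of 1 of the similar genes are not reported here.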

Additional observations from a re-analysis of the deposited data

Results flagged for a closer look

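For 5 of the 6 keratins the effect of one drug differed with the other drug present, by the interaction term of the limma fit at an adjusted p under 0.01. The share of all genes that passed this threshold without a coefficient limit was not counted, so 5 of 6 has no background beside it. The interaction was -1.14 for Krt1, -3.03 for Krt10, -2.33 for Krt13 and -2.26 for Krt78, all past the coefficient limit, and 0.75 for Krt80, under it. UK5099 changed Krt10 from a mean of 2.64 to 118.4 TPM without butyrate, and from 8.14 to 35.8 TPM with it. For Krt80 the step went from 3.33 to 2.57 TPM without butyrate and from 2.69 to 4.13 TPM with it, opposite ways.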

How the results depend on the processing

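For the 42 coefficients of the 6 keratins in 7 comparisons, 876 values were computed under alternative settings, of which 871 kept both direction and call. Many of these could not move a coefficient and could change only its adjusted p. They were the filter, the other prior, the replicate block, the fits of 6 samples and leaving out a sample outside the groups compared. The 871 are therefore not a measure of how stable the coefficients were. Krt4 under butyrate was no longer called without vehicle replicate 3, at 0.97, and leaving out each sample in turn gave 0.97 to 1.06, so 4 or 5 keratins were called. Krt4 under the combination was called at 1.15 with median of ratios scaling and 1.16 with voom on recovered fragments. Krt80 under butyrate turned from -0.23 to 0.0066 and 0.011 with these settings (adjusted p = 0.951 and 0.919). The cause was not tested. Without a limit on the coefficient, 4 keratins passed in combination against butyrate, 5 in combination against UK5099 and 4 in butyrate against UK5099, in place of 2, 1 and 2, since that setting admits smaller coefficients. Against vehicle 5, 6 and 6 then passed with UK5099, butyrate and the combination, in place of 4, 5 and 4, with Krt80 lower under each single drug, and 5 in place of 4 for the interaction. These counts hold for TPM as deposited. With median of ratios scaling Krt80 had an adjusted p of 0.0430 under UK5099 and 0.951 under butyrate. The share of all genes that passed without the limit was not counted. The counts without the limit therefore cannot be set against the shares given for calls, which also need the limit. Over all settings, combination against UK5099 ran from 0.05 to 0.41 for Krt1, 0.49 to 0.96 for Krt13, -0.80 to -0.32 for Krt78 and 0.47 to 0.998 for Krt80, and the Krt80 value for the combination against vehicle ran from 0.19 to 0.78. Over all genes, butyrate called 278 higher and 596 lower as deposited, 431 and 308 with median of ratios scaling, and 1687 and 913 with voom. For UK5099 the counts were 229 and 225, 263 and 148, and 747 and 684. For the combination they were 442 and 1143, 722 and 410, and 2306 and 1290.

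No pairing by the replicate numbers in the labels was detected. Same-numbered samples had correlations of deviations between -0.11 and 0.03, and differently numbered samples between -0.06 and 0.07. Such values cannot tell whether the samples were paired by design. With a replicate block, 4 keratins were called with UK5099, 5 with butyrate, 4 with the combination and 4 for the interaction, as without it. Depth limits Krt1 in vehicle most, at 44 to 68 fragments per sample.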
